A study of Drosophila melanogaster with 14 samples.

Results

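Mitochondrial ribosomal protein genes (mRp genes) are nuclear genes whose proteins, made in the cytosol and imported, build the ribosome that translates the few mRNAs of the mitochondrial genome. The mRpL genes encode proteins of its large subunit, which joins amino acids, and the mRpS genes those of its small subunit, which reads the mRNA. Fly eggs are loaded with maternal mRNA and mitochondria, and the first nuclear divisions run in a common cytoplasm before the zygotic genome is broadly transcribed. The members were all genes whose symbol begins with mRpL or mRpS, a rule that uses names and no measured value. They were 73 genes (47 mRpL, 26 mRpS) of 15288 in the table of mutant and wt embryos and 72 genes (46 mRpL, 26 mRpS) of 15682 in the table of extracts and early embryos. The difference is mRpL47, whose gene ID carries the symbol Rlc1 in the second table.

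RNA of Drosophila melanogaster embryos depleted of ribosomal RNA was sequenced, with 2 libraries in each of 7 groups. Nuclear extracts and cytoplasmic extracts came from wild-type Oregon R embryos aged 90 to 180 min after egg laying, and early embryos were whole Oregon R embryos of 0 to 45 min. Embryos of the mutants, called grp fs1 and the Slbp mutants 10/12 and 10/15 here, and wt Oregon R embryos were taken whole at 0 to 180 min. The mutant embryos came from trans-heterozygous mothers (the partner allele of grp fs1 is not given in the sources used here) mated with wild-type males, so that the names give the mothers' genotype and the embryos also carry a wild-type paternal copy. grp encodes Chk1, the kinase of the replication checkpoint, and Slbp the protein that binds the stem-loop of histone mRNAs.

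The libraries held 17368684 to 33866670 reads assigned to genes. grp had 1888 ± 241 normalized counts in grp fs1 and 13710 ± 571 in wt embryos, and Slbp had 223 ± 18 in Slbp 10/12, 224 ± 54.0 in Slbp 10/15 and 2825 ± 68.7 in wt embryos (SD, n = 2 each). Markers of the extracts were mixed. Among all genes tested, 28.6% were lower and 26.9% higher in nuclear than in cytoplasmic extracts. In a list of 33 nuclear RNAs (the spliceosomal snRNAs, 7SK and the roX RNAs), 16 of 23 tested were lower in nuclear than in cytoplasmic extracts, and the list summed to 90527 and 83129 normalized counts in nuclear, 727692 and 1168290 in cytoplasmic and 98637 and 101813 in early libraries, which runs against the names. The 8 zygotic genes of the blastoderm were higher in nuclear than in cytoplasmic extracts in 4 cases and lower in 0, with sums of 82878 and 103159 in nuclear, against 36898 and 44230 in cytoplasmic libraries. The cytoplasmic libraries also stood apart from each other, with a chi-square per degree of freedom of 474 between their reads, against 8.49 to 35.7 within the other groups. The 10 genes listed for older embryos summed to 26361 and 9980 in nuclear, 5788 and 29801 in cytoplasmic and 25097 and 21219 in early libraries. The early libraries lay within the range of the extract libraries, so that this list did not set the ages apart. The results use the names of extracts and ages as labelled.

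The members were moderately abundant. FPKM, which corrects for gene length, had a median of 45.9 over the 73 members in wt embryos, against 1349 over 87 cytosolic ribosomal protein genes and 18 over all genes tested. Both subunits lay at the same level, with medians of 45.9 for mRpL and 46.0 for mRpS genes. The highest were mRpL12 (105 ± 0.923 FPKM), the factor-binding stalk protein, mRpS10 (101 ± 6.72) and mRpS7 (98.0 ± 0.0262), both of the small subunit head (SD, n = 2). mRpS10 and mRpL12 did not differ beyond that spread. The lowest detected were mRpS28 at 17.4 ± 2.87 and mRpL41 at 9.95 ± 0.427. mRpL53 was listed at 0 in all 14 libraries. Its exons overlap those of AGO1 and CG33155 in the annotation BDGP6.54, 1 of them on its own strand. Whether its RNA was absent or its reads went uncounted was not tested. All other members, 71 of 72 and 72 of 73, passed the filter of a mean of at least 5 normalized counts in at least 1 group.

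Nuclear extracts held less mRNA of most members than cytoplasmic extracts. Of 71 tested, 56 were lower in nuclear extracts, 50 of them at least 2-fold, and 0 were higher (limma on log2(normalized count + 1), adjusted p under 0.05). Over all 10335 genes tested, 28.6% were lower and 26.9% higher. At an unadjusted p under 0.05, 57 members differed, and edgeR called 1 and DESeq2 0 higher. The median log2 difference was -1.37 over the members and 0.24 over all genes, and the members' values ran from -2.74 to 0.54. Summed over the members, nuclear libraries held 61777 and 78293 normalized counts, against 185244 and 163510 in cytoplasmic libraries, or 0.287% and 0.286% of all normalized counts against 0.475% and 0.433%. The nuclear RNAs named above were lower in nuclear extracts too, and the part of that shift in the members' difference was not tested.

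**Figure D1:**
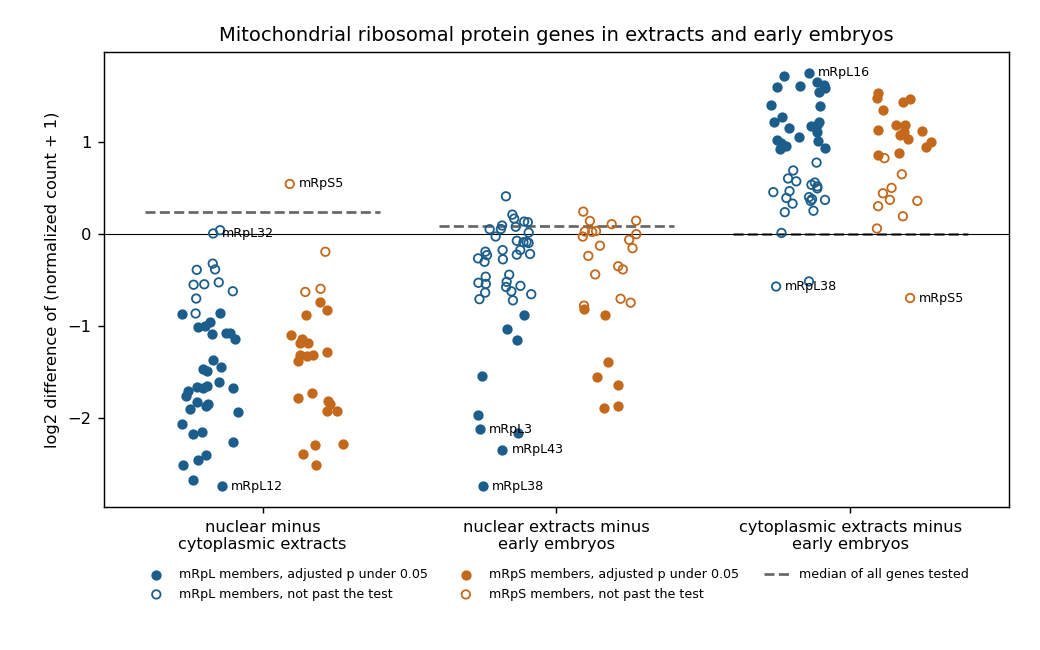
Log2 differences of the 71 members tested (y axis) for nuclear minus cytoplasmic extracts, nuclear extracts minus early embryos and cytoplasmic extracts minus early embryos (x axis), with mRpL genes in blue, mRpS genes in orange, filled points past the test and the median of all genes as a dashed line. Most points of the nuclear minus cytoplasmic column lie below 0, with a median of -1.37, and most points of the cytoplasmic minus early column above it, with a median of 0.94.

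The 4 largest falls were in mRpL12, mRpL21, mRpL3 and mRpS29. mRpL12 had 690 and 893 normalized counts in nuclear libraries, against 5974 and 4616 in cytoplasmic libraries. It was 6.69-fold lower in nuclear extracts (log2 difference -2.74, SE 0.30, adjusted p = 2.89e-06 by limma). mRpL21 had 495 and 578 in nuclear, against 3882 and 3028 in cytoplasmic libraries (log2 difference -2.68). Neither gene's groups overlapped, and both nuclear libraries were far below both cytoplasmic ones. mRpL3, which in bacteria starts the assembly of the large subunit, had 395 and 500 in nuclear, against 3341 and 1932 in cytoplasmic libraries (log2 difference -2.51). mRpS29, named DAP3 in mammals, where it binds GTP in the small subunit, had 699 and 834 in nuclear, against 5147 and 3693 in cytoplasmic libraries (log2 difference -2.51). In both genes the higher nuclear library was still several-fold under the lower cytoplasmic one.

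The stalk genes shared the direction but not the size. mRpL10, which anchors the stalk, was 4.19-fold lower in nuclear extracts (959 ± 192, against 4015 ± 900 in cytoplasmic extracts), and mRpL11, at the stalk base, 2.11-fold (1093 ± 123, against 2305 ± 28.3; SD, n = 2 each). The 3 genes named for S18 spread as widely. mRpS18A, whose mammalian counterpart sits in the large subunit, was 4.85-fold lower in nuclear extracts and mRpS18B 2.48-fold. mRpS18C did not pass the test (log2 difference -0.63, 95% interval -1.40 to 0.14). mRpS30, whose mammalian counterpart likewise sits in the large subunit, had 2567 and 3458 in nuclear, against 5193 and 3916 in cytoplasmic libraries, and did not pass either (adjusted p = 0.102 by limma).

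The 15 members not called between the extracts had log2 differences between -0.87 and 0.54. Among them were mRpL32 (787 and 1062 in nuclear, against 1081 and 769 in cytoplasmic libraries), whose libraries overlapped, and mRpS5, at the mRNA entrance of the small subunit. mRpS5 was the single member with both nuclear libraries (3413 and 4572) above both cytoplasmic ones (2950 and 2497). Its log2 difference of 0.54 had an adjusted p of 0.131 by limma.

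Both subunits and all classes of members shared the direction. Of 45 mRpL genes tested 34 were lower in nuclear extracts (median -1.47), as were 22 of 26 mRpS genes (median -1.32). Members whose number is also used for a bacterial ribosomal protein, up to L36 and S21, had 31 of 42 lower (median -1.32). Those with a higher number, most of them proteins that bacterial ribosomes lack, had 25 of 29 lower (median -1.65). In the annotation BDGP6.54, which matched 71 member IDs (not those of mRpS5 and mRpS34), 42 members have exons that overlap those of another gene, and as the strand setting of the counting is not given in the sources used here, reads of such partners cannot be told apart. Among the 29 members whose exons overlap none, 25 were lower and 0 higher, with a median of -1.71. Across the 71 members the difference showed little relation to gene length (Spearman's rho -0.19) or to FPKM in wt embryos (rho 0.17). These values are across genes measured in the same libraries.

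Without 1 nuclear or cytoplasmic library, 45 to 59 members were lower, with the fewest without nuclear replicate 1. Without cytoplasmic replicate 1, 59 were lower and 1 higher, and without cytoplasmic replicate 2, 58 were lower.

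Cytoplasmic extracts held more mRNA of many members than early embryos. Of 71 tested, 40 were higher in cytoplasmic extracts, 32 of them at least 2-fold, and 0 were lower, against 17.8% higher and 19% lower over all genes. At an unadjusted p under 0.05, 43 members differed, and edgeR and DESeq2 each called 1 lower. The median log2 difference was 0.94 over the members and -0.00 over all genes. This comparison shares the cytoplasmic libraries with the one between the extracts, and age and extract cannot be told apart in it. Without either early library, most of the 40 calls were lost, and calls over all genes fell as well. All members that stayed past the test were among the 40.

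mRpL16, which touches the tRNAs on the large subunit, changed most among those called. It had 2674 and 2256 normalized counts in cytoplasmic libraries, against 731 and 728 in early libraries (3.38-fold higher, log2 difference 1.75, SE 0.31, adjusted p = 0.000463 by limma). mRpL1, the protein of the mobile L1 stalk, had 7717 and 6388 in cytoplasmic, against 2137 and 2146 in early libraries (log2 difference 1.71). mRpL21 (log2 difference 1.64) and mRpL27, which in bacteria reaches towards the catalytic centre (1.61), followed. The cytoplasmic libraries of all 4 genes were at least 2-fold above both early libraries. mRpL12, the gene with the largest fall in nuclear extracts, was 3.03-fold higher in cytoplasmic extracts than in early embryos. At the other end lay mRpS5 with 2950 and 2497 in cytoplasmic, against 4582 and 4230 in early libraries. Its difference of -0.70 did not pass the test (adjusted p = 0.0746 by limma), nor did those of mRpL38 (-0.57) and mRpL43 (-0.52), although no libraries overlapped.

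**Figure D2:**
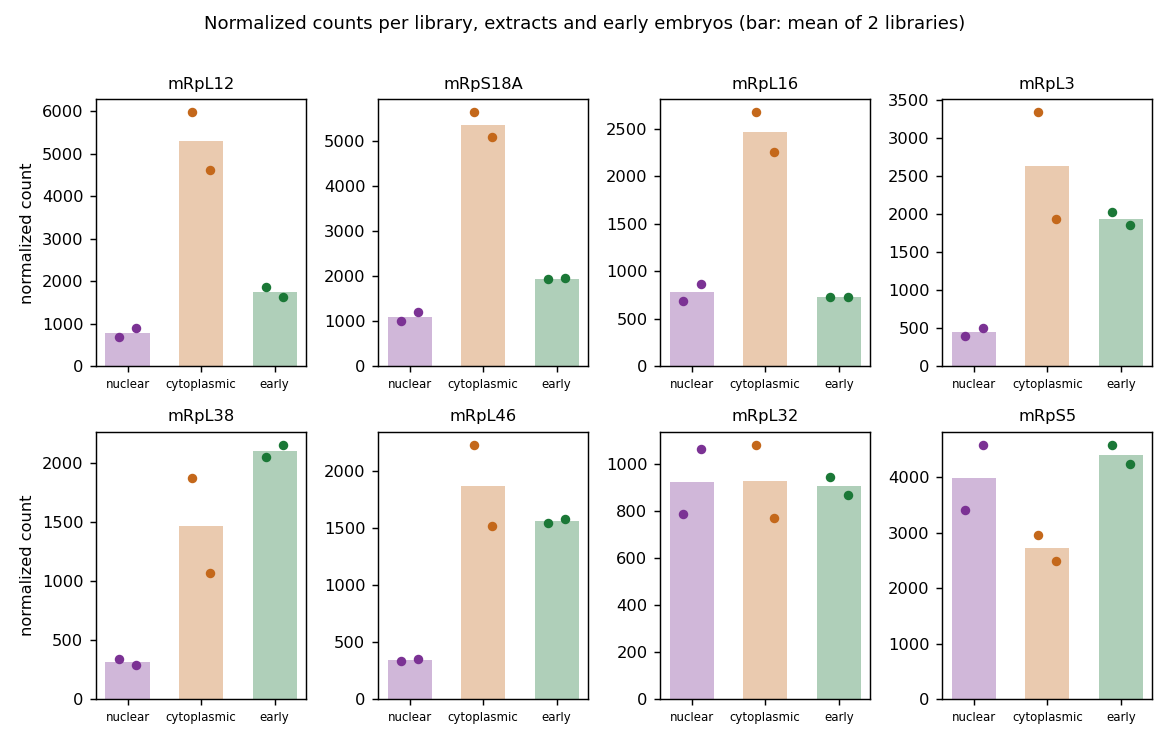
Normalized counts (y axes, from 0) of 8 members in nuclear extracts, cytoplasmic extracts and early embryos (x axes), with points for libraries and bars for the mean of the 2 libraries. mRpL12, mRpS18A and mRpL16 are highest in cytoplasmic extracts, mRpL38 is lowest in nuclear extracts (341 and 287) and highest in early embryos (2048 and 2151), and mRpS5 is lowest in cytoplasmic extracts (2950 and 2497).

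Nuclear extracts differed from early embryos in fewer members. Of 71 tested, 16 were lower in nuclear extracts, 13 of them at least 2-fold, and 0 were higher, against 15.7% lower and 8.35% higher over all genes. At an unadjusted p under 0.05, 20 members differed, and neither edgeR nor DESeq2 called a member higher. The median log2 difference was -0.28 over the members and 0.09 over all genes. Age and extract cannot be told apart here either. The count rests on each nuclear library, since most calls were lost without either of them. Fewer were lost without either early library. Calls over all genes fell in each of these fits as well, so that the loss is not particular to the members. The spread between the cytoplasmic libraries enters this test too. With only these 4 libraries in the fit, 27 members and 2229 of all genes were lower, against 16 and 1622 in the fit of all groups.

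mRpL38, a mitochondria-specific protein that lies in the central protuberance of the large subunit in mammals, had 341 and 287 normalized counts in nuclear libraries, against 2048 and 2151 in early libraries. It was 6.69-fold lower in nuclear extracts (log2 difference -2.74, SE 0.34, adjusted p = 1.38e-05 by limma). mRpL46, another protein of that region, had 339 and 356 in nuclear, against 1542 and 1585 in early libraries (log2 difference -2.17). mRpL43 had 232 and 181 in nuclear, against 979 and 1113 in early libraries (log2 difference -2.34). These genes had little spread between libraries of a group, and all early libraries exceeded all nuclear ones several-fold. mRpL3 (log2 difference -2.12) and mRpL37 (-1.96) of the large subunit and mRpS2 (-1.90) and mRpS25 (-1.87) of the small subunit had differences of like size. mRpL22, mRpS34, mRpS35, mRpS29, mRpL12, mRpL21, mRpL17, mRpS31 and mRpS18A made up the 16. The call of mRpL38 held without each of the 4 libraries in turn, though only just under 0.05 (adjusted p by limma) without either nuclear library. Those of mRpL3 and mRpL43 were lost without either nuclear library (adjusted p of 0.0534 to 0.0786 by limma), that of mRpL46 without nuclear replicate 1 (0.0559), and those of mRpL12 and mRpS18A without any 1 of the 4 (0.0707 to 0.417).

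The members thus took 5 patterns over the 3 groups. In 35, mRNA was lower in nuclear than in cytoplasmic extracts, higher in cytoplasmic extracts than in early embryos and not called between nuclear extracts and early embryos. In 5 (mRpL12, mRpL21, mRpS18A, mRpS29 and mRpS31) it was in addition lower in nuclear extracts than in early embryos. In 11, among them mRpL38, mRpL43, mRpL46 and mRpL3, it was lower in nuclear extracts than in both other groups, with no call between cytoplasmic extracts and early embryos. In 5 only the extracts differed, and 15 were called in no comparison. The 3 comparisons share libraries, so that each gene's pattern is 1 description and not 3 findings.

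Rlc1, the ID named mRpL47 in the other table, had 350 and 348 normalized counts in nuclear, 1624 and 803 in cytoplasmic and 1347 and 1360 in early libraries. It was lower in nuclear extracts than in cytoplasmic extracts (log2 difference -1.71, adjusted p = 0.00070 by limma) and early embryos (-1.95, adjusted p = 0.000537). Between cytoplasmic extracts and early embryos Rlc1 was not called (-0.24, adjusted p = 0.610 by limma). Genes of mitochondrial ribosomal proteins under other names shared its fall between the extracts. tko, which encodes S12 of the decoding centre, and bonsai, which encodes S15, were lower in nuclear than cytoplasmic extracts (log2 differences -1.03 and -1.97). Unlike Rlc1, both were higher in cytoplasmic extracts than early embryos (1.18 and 0.87). bonsai was lower in nuclear extracts than early embryos (-1.10), while tko was not called there (0.14).

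Genes that work beside the mitochondrial ribosome were described from lists, without a test against the members. Over all genes, 28.6% were lower and 26.9% higher in nuclear than in cytoplasmic extracts. In cytoplasmic extracts 17.8% were higher and 19% lower than in early embryos, and in nuclear extracts 8.35% and 15.7%. In a list of 18 translation factors, aminoacyl-tRNA synthetases and ribosomal proteins of other names, 14 were lower and 1 higher in nuclear than in cytoplasmic extracts (median -1.31), 9 were higher and 0 lower in cytoplasmic extracts than in early embryos (median 0.85), and 5 were lower and 0 higher in nuclear extracts than in early embryos (median -0.41). CG7441 had the largest fall between the extracts (502, against 3466 in cytoplasmic extracts, group means). In a list for mitochondrial DNA and its transcription, 6 of 11 tested were lower and 2 higher (median -0.91), with mtSSB, which coats single-stranded mitochondrial DNA, at 501 in nuclear and 5788 in cytoplasmic extracts. In a list for protein import, 5 of 11 tested were lower (median -1.13), with Tim8, a chaperone of the intermembrane space, at 538 in nuclear and 4910 in cytoplasmic extracts. Cytosolic ribosomal protein genes exceeded all of these, with 78 of 85 lower in nuclear extracts (median -2.19) and 80 of 85 higher in cytoplasmic extracts than in early embryos (median 2.24). Between nuclear extracts and early embryos their median was 0.06. The 13 mRNAs of the mitochondrial genome were listed at 0 in this table.

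In the mutants the members changed less. In grp fs1 embryos, 18 of 72 members were higher and 1 was lower than in wt embryos, with 1 higher by at least 2-fold, against 14.3% higher and 28.7% lower over all 9868 genes tested. At an unadjusted p under 0.05, 24 members differed. The median log2 difference was 0.13 over the members and -0.10 over all genes. Under upper quartile scaling 13 were higher and 3 lower, under TMM scaling 23 and 0. Without each wt library in turn 8 were higher, without grp fs1 replicate 1 6 were, and with only these 4 libraries in the fit 9.

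In Slbp 10/12 embryos, 6 members were higher and 4 lower, against 15.6% and 33% over all genes, and the members' median was 0.03, against -0.11 over all genes. This split depended on the scaling, with 3 higher and 5 lower under upper quartile and 18 and 2 under TMM scaling. In Slbp 10/15 embryos, 11 were higher and 14 lower, against 20.1% and 38.9% over all genes, with medians of 0.04 over the members and -0.19 over all genes. Here 7 were higher and 14 lower under upper quartile scaling, and 16 and 11 under TMM scaling. Leaving out 1 library left 2 to 4 higher and 2 or 3 lower in Slbp 10/12, and 3 to 8 higher and 5 to 11 lower in Slbp 10/15 embryos. The 3 comparisons share the wt libraries.

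**Figure D3:**
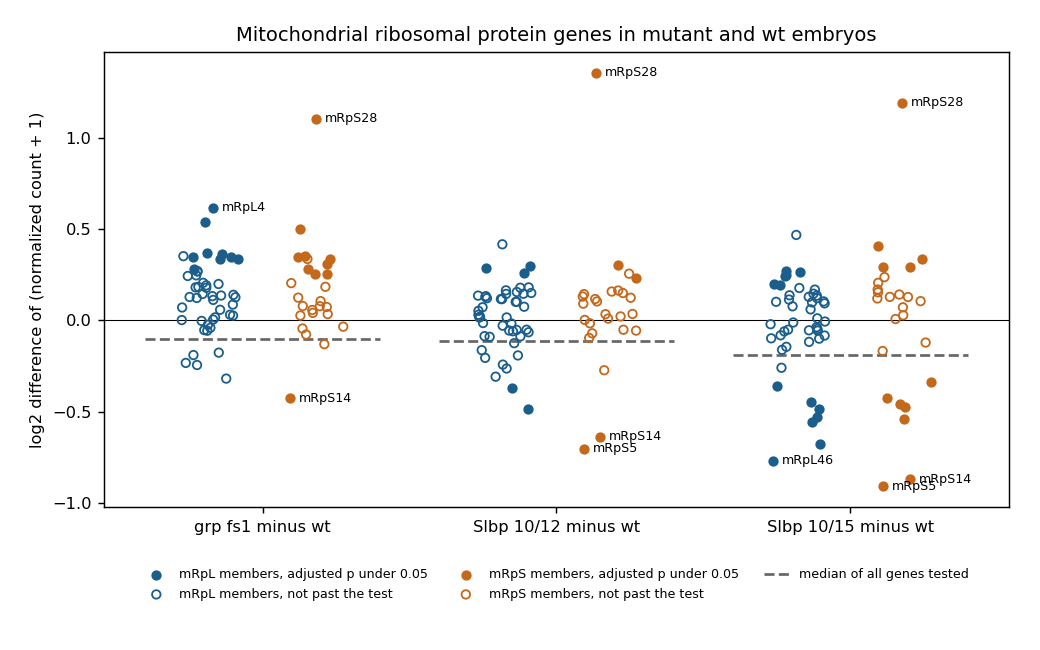
Log2 differences of the 72 members tested (y axis) for grp fs1 and the Slbp mutants 10/12 and 10/15 minus wt embryos (x axis), with mRpL genes in blue, mRpS genes in orange, filled points past the test and the median of all genes as a dashed line. mRpS28 lies apart at the top of each column (1.10, 1.36 and 1.19), and mRpS14 lies at -0.43, -0.64 and -0.87.

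Other signs moved with these groups. The 10 genes listed for older embryos summed to 9.3 and 3144 normalized counts in grp fs1 embryos, 22 and 30.6 in those of Slbp 10/12 and 39.5 and 58.4 in those of Slbp 10/15, against 16688 and 18422 in wt libraries. The 8 zygotic genes of the blastoderm summed to 7068 and 13770 in grp fs1 embryos, 6332 and 5432 in those of Slbp 10/12, 10532 and 7301 in those of Slbp 10/15 and 25110 and 24565 in wt libraries. Their part in the members' differences was not tested, and in whole embryos fewer cells of a type and less RNA per cell cannot be told apart. Summed over the members, the libraries held 74953 and 69360 in grp fs1 embryos, 67860 and 65010 in those of Slbp 10/12, 65061 and 65960 in those of Slbp 10/15 and 65116 and 63310 in wt embryos. Only both grp fs1 sums exceeded all others. The 13 mitochondrial mRNAs summed to 56518 and 63356 in grp fs1 embryos, 87403 and 55593 in those of Slbp 10/12, 59618 and 86567 in those of Slbp 10/15 and 68488 and 65166 in wt libraries. The wt libraries lay within the range of the mutant ones.

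mRpS28, a protein of the small subunit, stood apart. It had 561 and 539 normalized counts in grp fs1 embryos, 649 and 661 in those of Slbp 10/12 and 563 and 606 in those of Slbp 10/15, against 227 and 287 in wt libraries. All 6 mutant libraries were well above both wt libraries. It was 2.14-fold higher in grp fs1 (log2 difference 1.10, SE 0.13, adjusted p = 0.00139 by limma). It was 2.55-fold higher in Slbp 10/12 (log2 difference 1.36, adjusted p = 0.000696 by limma) and 2.28-fold in Slbp 10/15 (1.19, adjusted p = 0.000929). Its exons overlap those of CG10927 on the other strand, which was not called in any mutant (log2 differences -0.38, 0.30 and 0.42). In the extracts it was 1014 and 1548 in cytoplasmic libraries, above nuclear (319 and 410) and early (437 and 490) libraries.

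mRpS9, whose bacterial counterpart contacts the tRNA at the P site, was the other member higher in all 3 mutants. It had 2565 and 2577 in grp fs1 embryos, 2415 and 2473 in those of Slbp 10/12 and 2707 and 2808 in those of Slbp 10/15, against 2128 and 2028 in wt libraries. The differences were small, at 0.31, 0.23 and 0.41, but no mutant library overlapped with wt. mRpS14, of the small subunit head, was the single member lower in all 3. Its call in grp fs1 was lost without either wt library or grp fs1 replicate 2 (log2 differences of -0.33 to -0.48). That call was also lost under TMM scaling (adjusted p = 0.0502 by limma) and edgeR (adjusted p = 0.0732 by edgeR). With only the groups compared in the fit it was lost too (adjusted p = 0.0564 by limma). mRpS14 had 516 and 451 in grp fs1 embryos, 439 and 395 in those of Slbp 10/12 and 363 and 345 in those of Slbp 10/15, against 672 and 626 in wt libraries. Its log2 differences were -0.43 (adjusted p = 0.0243 by limma), -0.64 and -0.87. mRpS14 shares exonic bases with CG32533 and Naa15-16, 1 of them on its own strand, and its reads are therefore uncertain. CG32533 was higher in both Slbp mutants (0.59 and 0.60), and Naa15-16 was lower in Slbp 10/15 (-0.50).

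**Figure D4:**
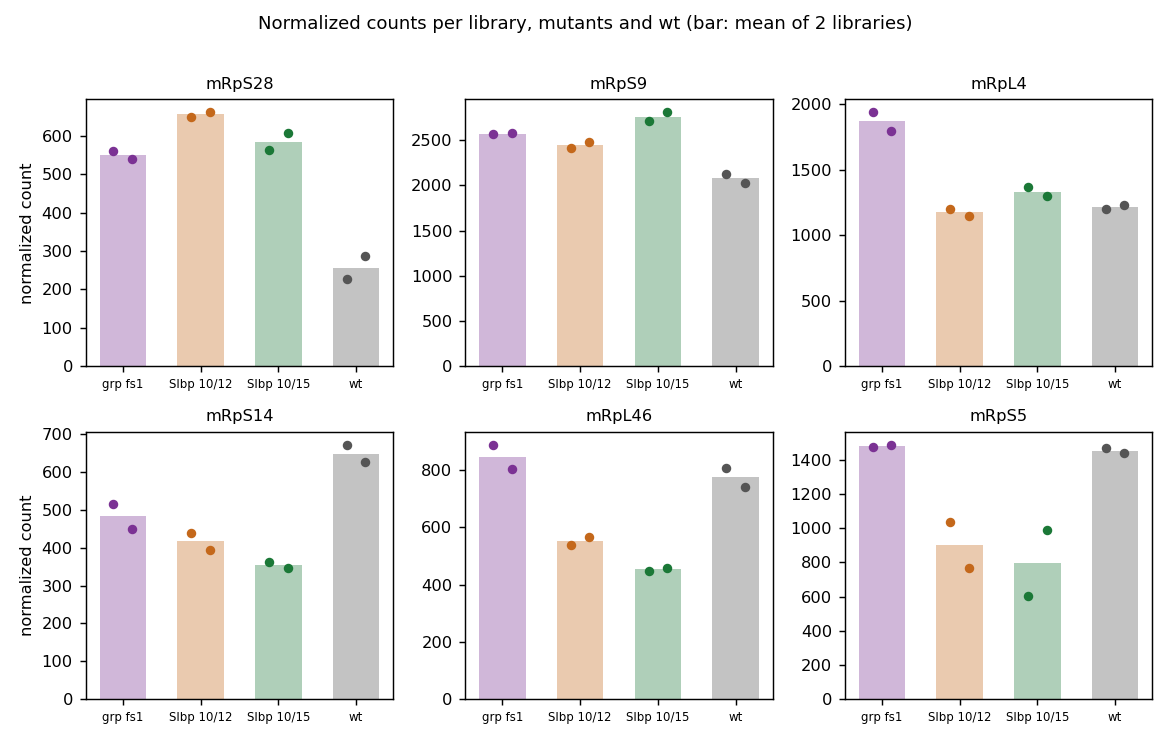
Normalized counts (y axes, from 0) of 6 members in grp fs1, Slbp 10/12, Slbp 10/15 and wt embryos (x axes), with points for libraries and bars for the mean of the 2 libraries. mRpS28 is above wt in every mutant library, mRpL4 is above wt in both grp fs1 libraries (1942 and 1800), and mRpL46 and mRpS5 are below wt and grp fs1 in the Slbp libraries.

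Of the members called in 1 comparison with wt or more, 36 in all, most were called in 1 mutant. mRpL4, at the constriction of the exit tunnel, had 1942 and 1800 in grp fs1, against 1204 and 1234 in wt libraries (log2 difference 0.62, SE 0.07, adjusted p = 0.00113 by limma). CG4278, which overlaps it on the other strand, was higher in all 3 mutants (0.71, 0.44 and 0.51), and reads of both cannot be told apart. mRpL41 (log2 difference 0.54) and mRpS18A (0.50) followed in grp fs1. mRpS26 was called as higher in grp fs1 (0.26) and as lower in Slbp 10/15 (-0.47). mRpL41 was at 189 and 178 in grp fs1, against 122 and 130 in wt libraries, and had like levels in both Slbp mutants (158 to 180), where it did not pass the test. Other members were called in more than 1 mutant. mRpS18B was higher in Slbp 10/12 (0.30) and Slbp 10/15 (0.34), and mRpL39 in both as well (0.29 and 0.27). mRpL10 was higher in grp fs1 (0.37) and Slbp 10/12 (0.30), mRpS22 in grp fs1 (0.35) and Slbp 10/15 (0.29), while mRpS30 was called in Slbp 10/15 (0.29) and in no other mutant. The call of mRpL41 in grp fs1 was lost without any 1 of the grp fs1 or wt libraries. It was also lost with a replicate block, upper quartile scaling or only the groups compared (adjusted p of 0.06 to 0.106 by limma). DESeq2 did not call it either (adjusted p = 0.117 by DESeq2). At least 1 choice of a library to leave out ended the call of mRpS18A in grp fs1. The same held for mRpS18B, mRpL10 and mRpL39 in Slbp 10/12 and for mRpS22 and mRpS30 in Slbp 10/15. No such choice ended the calls of mRpL4 in grp fs1, of mRpS18B in Slbp 10/15 or of mRpS28 in any mutant. mRpS9 lost its call in Slbp 10/12 without replicate 2 of that group.

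Among those lower in the Slbp mutants, mRpS5 had 1035 and 769 in Slbp 10/12 and 604 and 989 in Slbp 10/15, against 1467 and 1438 in wt libraries. Its Slbp libraries spread widely but all lay below wt (log2 differences -0.70 and -0.91, adjusted p = 0.0366 and 0.0121 by limma). Its call in Slbp 10/12 was lost without the filter, with a replicate block or under TMM scaling (adjusted p 0.0503 to 0.0547, limma). Under edgeR it was lost too (adjusted p = 0.056 by edgeR). mRpL46 had 538 and 567 in Slbp 10/12 and 449 and 457 in Slbp 10/15, against 809 and 740 in wt libraries. Its log2 differences were -0.48 and -0.77 (adjusted p = 0.00622 and 0.00125 by limma). mRpL37 was lower in Slbp 10/12 (-0.37) and Slbp 10/15 (-0.56), and mRpL22, at the exit tunnel, in Slbp 10/15 (-0.68). mRpL47 was lower in Slbp 10/15, with 452 and 443, against 602 and 621 in wt libraries (-0.45, adjusted p = 0.0241 by limma). It was not called in grp fs1 (820 and 660) or Slbp 10/12 (537 and 643). Leaving out 1 wt library ended the calls of mRpS5 in both Slbp mutants (adjusted p of 0.0949 to 0.195 by limma), of mRpL37 in Slbp 10/12, of mRpL22 and of mRpL47, but not those of mRpL46.

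grp fs1 was also set against the mean of both Slbp mutants, which uses no wt library. Of 72 members 22 were higher in grp fs1 and 2 lower, against 19.4% and 16.3% over all genes. At an unadjusted p under 0.05, 29 differed. The median was 0.13 over the members and 0.05 over all genes. mRpS5 (log2 difference 0.83), mRpL46 (0.76), mRpL38 (0.67) and mRpL4 (0.58) were the largest among the higher. mRpL46 had 888 and 804 in grp fs1, against 449 to 567 in the 4 Slbp libraries. The 2 lower genes, mRpL54 (-0.50) and mRpL39 (-0.47), had no overlap either, with mRpL39 at 1589 and 1517 in grp fs1, against 2101 to 2221 in the Slbp libraries. Without grp fs1 replicate 1, 5 were higher and 2 lower.

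The Slbp mutants differed from each other in 1 member, against 1.81% higher and 1.48% lower over all genes. mRpS26 had 999 and 962 in Slbp 10/12, against 703 and 708 in Slbp 10/15 libraries (log2 difference 0.47, 95% interval 0.30 to 0.65, adjusted p = 0.0244 by limma), and 0 members were lower by limma, edgeR or DESeq2. DESeq2 called 3 higher. At an unadjusted p under 0.05, 14 members differed. mRpS35 (0.49, 95% interval 0.19 to 0.80) and mRpL2 (-0.44, -0.73 to -0.16) had differences of like size that did not pass (adjusted p = 0.0839 and 0.0869 by limma). The call of mRpS26 was lost without any 1 of these 4 libraries.

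The calls in nuclear extracts against early embryos were also set beside those in the mutants. Of the 16 lower in nuclear extracts than in early embryos, 10 were lower and 0 higher in Slbp 10/15 than in wt embryos (median -0.39). Of the 55 others, 3 were lower and 11 higher (median 0.10). The 10 were mRpL3, mRpL22, mRpL37, mRpL38, mRpL43, mRpL46, mRpS2, mRpS25, mRpS34 and mRpS35. mRpL12, mRpL17, mRpL21, mRpS18A, mRpS29 and mRpS31 were not called in Slbp 10/15. Over all genes, 53.7% of the 1588 lower in nuclear extracts than in early embryos, and 33.2% of the 7174 not called, were lower in Slbp 10/15. Their median log2 differences in Slbp 10/15 were -0.33 for the 1588 and -0.04 for the 7174. Higher in Slbp 10/15 were 4.41% of the 1588 and 25.2% of the 7174. The share of 10 in 16 lower lies near 53.7% and that of 3 in 55 lower under 33.2%. That of 11 in 55 higher is not above 25.2%, and none of these differences was tested. In Slbp 10/12, 2 of the 16 were lower and 0 higher (median -0.07). Over the 1588 genes, 17% were lower and 9.38% higher there (median -0.06). In grp fs1, 3 of the 16 were higher and 0 lower (median 0.19). Over the 1588 genes, 20.7% were higher and 7.75% lower there (median 0.12). Against the Slbp mean, 10 of the 16 were higher in grp fs1. That comparison shares the grp fs1 and Slbp libraries with those above, and no share over all genes was computed for its count. Across the 71 members, the difference between nuclear extracts and early embryos had a Spearman's rho of 0.57 with that of Slbp 10/15. With that of Slbp 10/12 rho was 0.31, and with that of grp fs1 -0.13. These values are a description in which no library entered both sides, and no rho over all genes was computed. bonsai lay with these members (-1.10 in nuclear extracts against early embryos, -0.33 in Slbp 10/15 against wt), as did Rlc1 or mRpL47 (-1.95 and -0.45). tko did not, with 0.14 (adjusted p = 0.792 by limma) in the extracts and a call as higher in Slbp 10/15 (0.32).

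**Figure D5:**
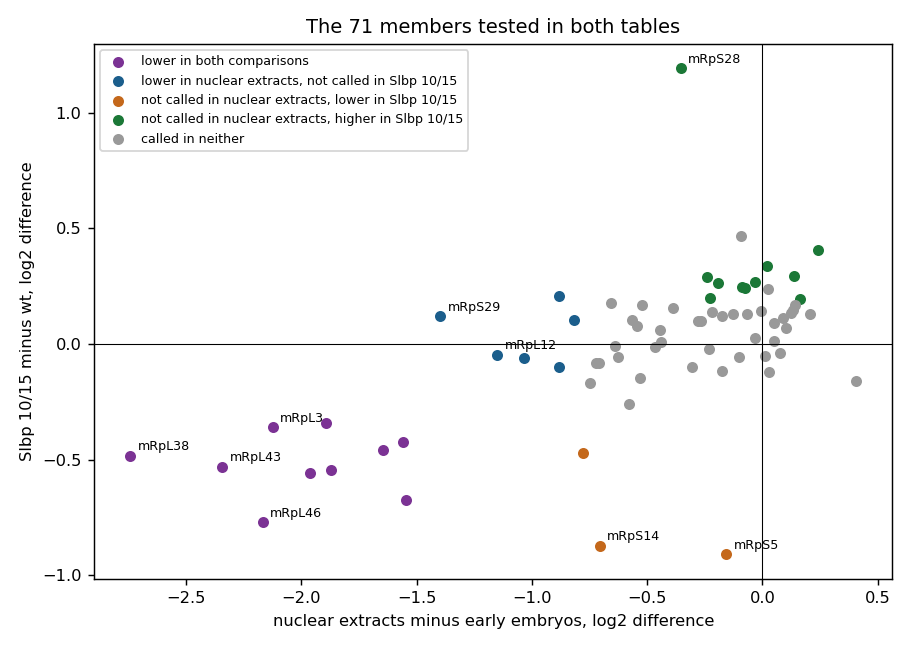
Log2 difference of nuclear extracts minus early embryos (x axis) and of Slbp 10/15 minus wt embryos (y axis) for the 71 members tested in both tables, 1 point per gene, coloured by the calls. The 10 purple points, lower in both comparisons, lie at the lower left, with mRpL38 at -2.74 and -0.48, while mRpS28 lies alone at the top with 1.19 in Slbp 10/15.

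Across the mutants, the other mitochondrial lists held calls in both directions, as did all genes. Of all genes tested, 14.3% were higher and 28.7% lower in grp fs1 embryos. The shares were 15.6% and 33% in Slbp 10/12, and 20.1% and 38.9% in Slbp 10/15. Of the 18 genes beside the ribosome, 4 were higher and 2 lower in grp fs1 embryos, 4 and 0 in those of Slbp 10/12, and 6 and 3 in those of Slbp 10/15. tko was 658 ± 3.62 in grp fs1 embryos, 1279 ± 84.3 in those of Slbp 10/12 and 1368 ± 19.1 in those of Slbp 10/15, against 1099 ± 39.9 normalized counts in wt embryos (SD, n = 2 each). It was lower in grp fs1 (log2 difference -0.74) and higher in Slbp 10/12 (0.22) and Slbp 10/15 (0.32). Of the 11 genes tested for mitochondrial DNA and its transcription, 1 was higher and 2 lower in grp fs1 embryos, 2 and 2 in those of Slbp 10/12, and 4 and 2 in those of Slbp 10/15. mtRNApol, the mitochondrial RNA polymerase, was higher in Slbp 10/12 (0.61) and Slbp 10/15 (0.68). Of 10 import genes tested, 4 were higher in grp fs1, 1 was in Slbp 10/12, and in Slbp 10/15 3 were higher and 2 lower. Tom70, a receptor of the outer membrane, was higher in all 3 (0.42, 0.61 and 0.65). Of 6 ATP synthase genes, 4 were higher in grp fs1 and 2 were in each Slbp mutant, with ATPsyn-beta lower in Slbp 10/15 (-0.40). Of 84 cytosolic ribosomal protein genes, 20 were higher and 5 lower in grp fs1 (median 0.12), 2 and 30 in Slbp 10/12 (median -0.15) and 3 and 7 in Slbp 10/15 (median -0.04).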

How the data were processed

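The members and gene lists were chosen with earlier results of these data known. Libraries were depleted of ribosomal RNA, sequenced by the authors, aligned with TopHat to dm3 and counted per gene with featureCounts, per the labels and the methods. The deposited signal is the normalized count, made by the authors by dividing each library's counts by 1 size factor (DESeq in the submitters' notes, DESeq2 in the methods). The authors' FPKM columns of the mutant table served for levels only. Whole reads were recovered from each library's smallest step, within a tolerance of 0.01, for depth, edgeR and DESeq2.

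The filter kept genes whose normalized counts averaged 5 or more in any group of their table. Each table was fitted by limma 3.58.1 under R 4.3.3, two-sided, on log2(normalized count + 1), with the trend option, a mean for every group and no replicate block, and p-values were adjusted (Benjamini-Hochberg) over all genes of each comparison. Folds are ratios of group means, SE and intervals (95%) come from the fit, and log2 differences understate changes of low genes. The sources do not say whether the 2 libraries of a group are separate collections, so that p-values measure spread between libraries only. This spread is 1 value per gene, pooled over all groups of its table, so that groups outside a comparison enter it too. Replicates differed by more than sampling noise. Names were matched by gene ID to BDGP6.54 (71 of 73), which is not the authors' build, so that no coordinates are given. Per comparison, named genes were the 4 largest rises and falls past the test whose higher group averaged 50 or more and whose libraries did not overlap, the 3 highest and lowest by FPKM, and genes fixed by name. Others were named after their values were seen. Alternatives were a pseudocount of 5, no filter, upper quartile and TMM scaling, edgeR 4.0.16, DESeq2 1.42.0, a replicate block, leaving out each library in turn and fits restricted to the groups compared. Sequences were not used here. The tests were tried on simulated data.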

Additional observations from a re-analysis of the deposited data

How the results depend on the processing

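With 2 libraries per group, leaving 1 out leaves a lone sample that is assumed to vary like the other groups. No member's difference that had passed the test changed sign, but the balance of higher to lower calls turned round in both Slbp mutants. It was 6 to 4 in Slbp 10/12, against 3 to 5 under upper quartile scaling and 2 to 3 without either Slbp 10/12 library, and 11 to 14 in Slbp 10/15, against 16 to 11 under TMM scaling, 15 to 9 under edgeR and 8 to 7 without wt replicate 1. Under upper quartile scaling the all-gene median was 0.50 between the extracts (0.24 as reported) and 0.28 for nuclear extracts against early embryos (0.09), and the members' differences are to be read relative to these medians.

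Between nuclear and cytoplasmic extracts, 1 member was higher under upper quartile scaling, TMM scaling and edgeR, and 0 to 1 without 1 library. Between cytoplasmic extracts and early embryos, 1 was lower under upper quartile scaling, TMM scaling, edgeR and DESeq2, and without 1 library 11 to 50 were higher and 0 to 3 lower. Between nuclear extracts and early embryos, 27 were lower with only the groups compared, and 1 to 10 without 1 library.

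In grp fs1, 11 were higher under DESeq2 and 9 with only the groups compared, while 3 were lower under upper quartile scaling and 0 under TMM scaling, edgeR and only the groups compared. Without 1 library 6 to 21 were higher and 0 to 1 lower. In Slbp 10/12, 3 were higher under upper quartile scaling, 18 under TMM scaling and 16 under edgeR, and 2 were lower under TMM scaling and edgeR. Without 1 library 2 to 4 were higher and 2 to 3 lower. In Slbp 10/15, 7 were higher under upper quartile scaling and 9 lower under edgeR, and without 1 library 3 to 8 were higher and 5 to 11 lower. For grp fs1 against the Slbp mean, 5 to 20 were higher without 1 library. Between the Slbp mutants, 3 were higher under DESeq2 and 0 without 1 library. The cause was not tested for any of these.

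Same-numbered libraries did not deviate together (correlations of -0.51 to 0.09). Such correlations cannot show whether libraries came from the same collection. The value of -0.51 was that of cytoplasmic and nuclear extracts, whose same-numbered libraries deviated in opposite directions. Whether extract libraries of like or unlike number are paired is not given in the sources used here. With a replicate block, 52 were lower between the extracts, 35 higher in cytoplasmic extracts than early embryos, 13 lower in nuclear extracts than early embryos, and 17 higher and 1 lower in grp fs1. For Slbp 10/12 it gave 6 higher and 4 lower members, for Slbp 10/15 12 and 15. A crossed block between the extracts, which pairs libraries of unlike number, was chosen after seeing the data. It called 56 lower, 55 of them among those reported, with mRpL41 gained (adjusted p = 0.0457 by limma).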
